A study of Mus musculus with 4 samples.

Results

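The SR splicing factors were followed through sorted thymic invariant natural killer T (iNKT) cells of wild-type and Mettl3-deficient mice. The group is the 10 genes Srsf1, Srsf2, Srsf3, Srsf4, Srsf5, Srsf6, Srsf7, Srsf9, Srsf10 and Srsf11, chosen by name, of 53715 genes in the count table, and all 10 were among the 14185 genes with enough reads to be tested. iNKT cells are T cells whose semi-invariant receptor binds lipids on CD1d, and here live (7AAD-negative) cells carrying TCRβ and binding a CD1d tetramer were sorted from thymocytes of C57BL/6 mice aged 6 to 8 weeks. The 2 control libraries were labelled wild type (WT), and whether those mice carried Cre or a floxed allele is not stated. The 2 others came from mice of genotype Mettl3 fl/fl CD4-cre, called knockout below, in which Cre under Cd4 control acts in every cell that has passed the CD4+CD8+ stage and so not in iNKT cells alone. METTL3 is the catalytic subunit of the enzyme that writes N6-methyladenosine (m6A) on mRNA. Nothing in the labels states whether a genotype's libraries came from separate or pooled animals, so every p-value below measures no more than the spread between the libraries at hand, and that spread may be technical.

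SR proteins carry RNA-recognition motifs and a tail of arginine-serine repeats (the RS domain). They bind enhancer sequences in exons, and through the RS domain, which SRPK and CLK kinases phosphorylate, they help U1 snRNP and U2AF to settle on the neighbouring splice sites. Several of them also accompany mRNA out of the nucleus, and SR genes limit their own output by splicing in a poison exon that sends the transcript to nonsense-mediated decay. The tie to m6A is the nuclear reader YTHDC1, which is known to bring SRSF3 to methylated exons and to keep SRSF10 away from them. In T cells, deletion of Srsf1 is known to impair iNKT cell development. The comparison below asks whether the transcripts of these factors differ in level when Mettl3 is targeted. Splicing itself was not measured, since the table holds 1 count per gene.

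The windows upstream of Srsf3 and Srsf7 are shown because these 2 members, both adapters for mRNA export, differed between genotypes in opposite directions without overlap of libraries, although neither passed the test. The sequences are RefSeq's, build GRCm38.p6, and cover the 250 bases before the start that RefSeq annotates for each gene, which can differ from that of GENCODE. They read 5′ to 3′ on the gene's strand, chr17:29032410-29032659 on the plus strand for Srsf3 and chr17:80207306-80207555 on the minus strand for Srsf7. Capitals mark every match to TATAA of the TATA box, CCAAT of the box of that name, TGACG of the CREB/ATF site or GGAAG of the ETS site. Each was sought on both strands, so its reverse complement is in capitals too, and no matches overlap in these windows.
Srsf3: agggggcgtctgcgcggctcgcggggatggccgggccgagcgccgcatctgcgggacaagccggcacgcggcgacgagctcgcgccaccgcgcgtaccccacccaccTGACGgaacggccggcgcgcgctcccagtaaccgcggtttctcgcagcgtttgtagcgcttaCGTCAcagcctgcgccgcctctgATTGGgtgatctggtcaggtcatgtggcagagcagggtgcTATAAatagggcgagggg
Srsf7: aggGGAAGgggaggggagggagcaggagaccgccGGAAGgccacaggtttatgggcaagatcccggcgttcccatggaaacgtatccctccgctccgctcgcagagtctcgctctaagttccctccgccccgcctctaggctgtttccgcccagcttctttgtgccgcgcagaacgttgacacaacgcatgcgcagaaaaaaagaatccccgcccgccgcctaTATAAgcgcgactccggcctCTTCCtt
Both windows hold a TATAA close to their downstream end, and that of Srsf3 lies past the start of the gene in GENCODE M21. TATAA stood in 4 of the 10 SR windows (Srsf2, Srsf3, Srsf6 and Srsf7), against 22.8% of 32817 windows of the same length. TGACG stood in 6 of 10, against 17.7% of windows, CCAAT in 3 of 10, against 33.8%, and GGAAG in 5 of 10, against 64.1%. The SR windows were rich in G and C, with 56.8% to 77.2% GC and a median of 66.8%, where the median over all windows was 52.4%. Their median ratio of observed to expected CpG (C followed by G) was 1, against 0.373 over all windows, and TGACG contains a CpG. The part of base content in these motif shares was not tested. A match is a run of letters and not a measured site.

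The second set of sequences holds GGACT, the preferred core of the m6A consensus, in Srsf3 and Srsf10, which are tied to YTHDC1, and in Srsf7. The windows of the other members are not shown. Each window is 29 bases of the longest annotated coding transcript in GENCODE M21, on the sense strand, with the match in capitals. They are ordered along each transcript.
Srsf3: ctaccctgtattGGACTgtaataaacagc
Srsf10: tgttatcccaatGGACTtagtatattctg
Srsf7, upstream: gctctggggcggGGACTcggaaaccaagg
Srsf7, middle: tccagaaagaatGGACTgaagttctcaag
Srsf7, downstream: caggatctgaaaGGACTttgaaattttca
Srsf3 and Srsf10 each held 1 such motif, at base 2416 of 2618 and base 2105 of 3754 of their transcripts, a density of 0.382 and 0.266 per kilobase. Srsf7 held 3, or 1.25 per kilobase, and Srsf9 held 3 in its short transcript, or 2.58 per kilobase, the highest density of the 10. The highest number was in Srsf1, with 5 in its long transcript, or 0.932 per kilobase. The median over 11696 tested coding genes was 1.05 per kilobase, so 8 of the 10 SR transcripts lay below it, and Srsf5 held none. Methylation of these bases was not measured.

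The libraries held 24374587 to 28316016 counts over genes, of which mitochondrially encoded genes took 0.805% to 0.928%. Levels are in CPM, which are counts scaled to TMM-adjusted library size. Mettl3 stood at 92.2 and 124 CPM in WT and 78.1 and 91.4 CPM in the knockout. Its log2 fold change was -0.35 (SE 0.19, adjusted p = 0.357 by edgeR). A count summed over all exons does not show the loss of a floxed exon, and which exons are floxed is not given in the sources used here. Markers of the sorted type were present, with Cd3d, Cd3e, Cd3g, Trac, Zbtb16, Gata3, Tbx21 and Il2rb summing to 6353 and 7330 CPM in WT and 5288 and 5445 CPM in the knockout. Marker RNA of several cell types differed between genotypes. Markers of NKT1 cells summed to 5214 to 6966 CPM in WT and 2615 to 2664 CPM in the knockout (12 of 13 lower). Stage 0 markers summed to 2365 to 2581 CPM in WT and 4105 to 4209 CPM in the knockout (5 of 11 higher, 0 lower). Of these 11 markers, 9 had a positive log2 fold change and 2 a negative one, Cd69 (-0.91) and Itm2a (-0.003). The libraries of Cd24a, Myb and Itm2a overlapped between genotypes. B cell markers summed to 215 to 351 CPM in WT and 1797 to 1896 CPM in the knockout (3 of 9 tested higher, with Pax5 at 0). In bulk RNA of sorted cells, fewer cells of a type and less RNA per cell cannot be told apart.

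None of the 10 SR genes changed between genotypes by the test. At a Benjamini-Hochberg adjusted p under 0.05 in edgeR's quasi-likelihood test, 0 of 10 were higher and 0 of 10 lower in the knockout, where 2.59% of all tested genes passed (1.09% higher and 1.51% lower). With background shares this small, a count of 0 in 10 is no result about the SR genes in particular. Their lowest unadjusted p was 0.0509, so 0 of 10 were under 0.05 before adjustment. DESeq2 also called 0 of 10, although it called 9.4% of all genes, and its lowest adjusted p among the SR genes was 0.206, for Srsf3. The differences were split evenly in sign, 5 positive and 5 negative, with a median log2 fold change (knockout minus WT) of 0.02, the same to 2 decimals as over all tested genes.

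Given the spread between these libraries, the intervals show how large a difference the data leave room for. They borrow information on that spread from all tested genes, so they do not rest on each gene's own 2 libraries a genotype alone. All 10 of the 95% intervals lay within a 2-fold change either way, from the lower bound of -0.84 for Srsf9 to the upper bound of 0.56 for Srsf4 on the log2 scale. The standard errors ran from 0.09 for Srsf7 to 0.24 for Srsf9. The median size of the SR differences, regardless of sign, was 0.10 on the log2 scale, against 0.36 over all tested genes and 0.22 over the 5802 tested genes at least as abundant as the least abundant SR gene, Srsf9. These medians describe the genes and were not tested against each other.

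**Figure D1:**
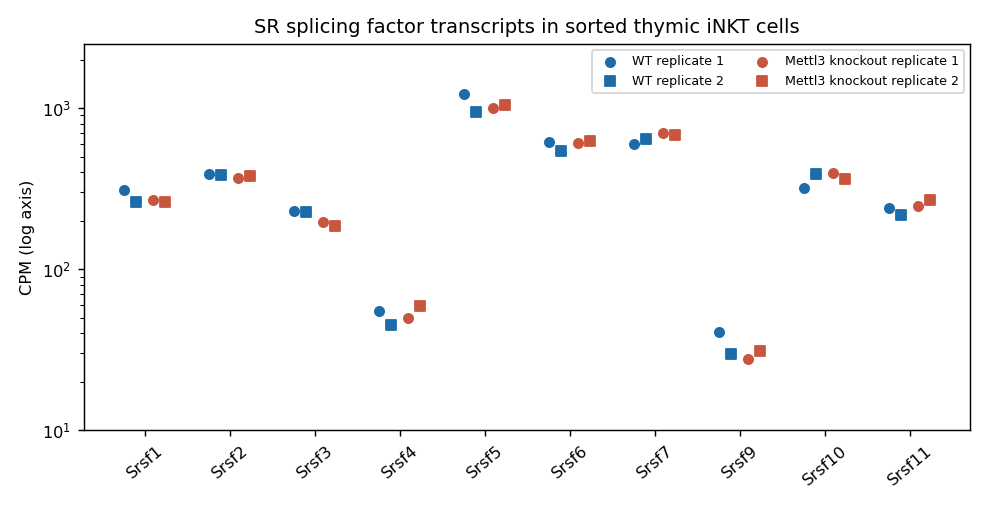
Level of each SR gene in each of the 4 libraries, in CPM on a log axis, with blue marks for WT and red for the knockout, circles for replicate 1 and squares for replicate 2. The genes span from 27.6 CPM (Srsf9) to 1224 CPM (Srsf5), and the genotypes lie close together within each gene.

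**Figure D2:**
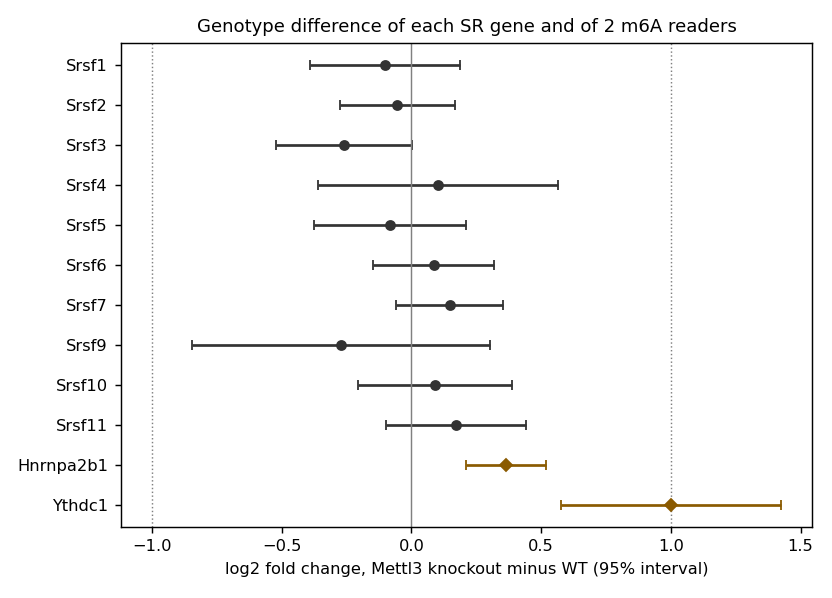
Log2 fold change of each SR gene and of Hnrnpa2b1 and Ythdc1, knockout minus WT, with 95% intervals from edgeR on 2 libraries per genotype and dotted lines at a 2-fold change either way. The interval of each of the 10 SR genes reaches 0, with Srsf3 ending at 0.00125, and those of Hnrnpa2b1 and Ythdc1 lie above it.

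Srsf3, the SR protein that YTHDC1 recruits and an adapter for the export receptor NXF1, came nearest to the threshold. It stood at 229 and 228 CPM in WT and at 196 and 185 CPM in the knockout. Both knockout libraries were lower than both WT libraries, and the WT libraries agreed to within a ratio of 1.01. The WT level was 1.20 times that of the knockout, and the log2 fold change of -0.26 had an SE of 0.11 and a 95% interval of -0.52 to 0.00125 (adjusted p = 0.249 by edgeR). This did not pass the test. Of the 10 SR genes, 4 had libraries that did not overlap between genotypes, Srsf2 and Srsf3 with the knockout lower and Srsf7 and Srsf11 with it higher, but so did 50.3% of all tested genes.

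Srsf10, the member that YTHDC1 is known to hold off and that represses splicing when dephosphorylated, showed 319 and 392 CPM in WT and 394 and 363 CPM in the knockout. The genotypes overlapped, because WT replicate 1 was low and WT replicate 2 lay between the knockout libraries. The log2 fold change was 0.09 (SE 0.13, 95% interval -0.21 to 0.39, adjusted p = 0.756). The ratio of Srsf3 to Srsf10 counts, a pair chosen with the values known, was 0.718 and 0.580 in WT and 0.498 and 0.511 in the knockout. It was lower in both knockout libraries, by 0.36 on the log2 scale. An exact two-sided permutation test gave p = 0.333, the smallest that 2 libraries against 2 allow, so the test could not have passed and decides nothing.

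Srsf7, which like Srsf3 adapts mRNA to NXF1 and is unusual in carrying a zinc knuckle, stood at 598 and 644 CPM in WT and 696 and 679 CPM in the knockout. Both knockout libraries were higher, but by a ratio of means of only 1.11 (log2 fold change 0.15, SE 0.09, 95% interval -0.06 to 0.35, adjusted p = 0.41). It had the smallest standard error of the 10. Against its fellow export adapter, the ratio of Srsf3 to Srsf7 was 0.383 and 0.353 in WT and 0.282 and 0.273 in the knockout, 0.41 lower on the log2 scale. The libraries of both genes did not overlap, in opposite directions, so this ratio had to separate the genotypes and no test of it is given. These differences were described after the values were seen and are not evidence of an exchange between the adapters.

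Srsf1, the founding SR protein, was read at 312 and 260 CPM in WT and 271 and 263 CPM in the knockout. WT replicate 1 stood above the other libraries, which agreed closely. The log2 fold change was -0.10 (SE 0.12, 95% interval -0.39 to 0.19, adjusted p = 0.713). The gene lies at chr11:88047373-88053755 on the plus strand (GRCm38), and 98 of its exonic bases overlap the antisense gene Gm11508, which had 0 counts in every library.

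Srsf2, which stays in the nucleus and which is a frequent target of mutation in myeloid disease, was the steadiest member. Its levels were 389 and 385 CPM in WT and 368 and 378 CPM in the knockout. The knockout libraries were lower without overlap, yet the ratio of means was 1.04 and the log2 fold change -0.05 (SE 0.09, 95% interval -0.28 to 0.17, adjusted p = 0.813). The gene lies at chr11:116849901-116853094 on the minus strand, where 748 of its 2958 exonic bases (25.3%) are shared with Mettl23 and Mfsd11 on the opposite strand. Smart-seq2 does not mark strand, so reads there cannot be assigned to one gene. Mettl23 had 97.4 to 133 CPM and Mfsd11 23.9 to 42.0 CPM, and neither passed the test (adjusted p = 0.402 and 0.409).

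Srsf5, Srsf6 and Srsf4 share the arrangement of a true and a degenerate RNA-recognition motif ahead of the RS domain. Srsf5 was the most abundant member, with 1224 and 939 CPM in WT and 1005 and 1039 CPM in the knockout. Its WT libraries differed by a ratio of 1.30 and enclosed both knockout libraries, which left a log2 fold change of -0.08 (SE 0.13, 95% interval -0.38 to 0.21, adjusted p = 0.779). Srsf6 stood at 618 and 541 CPM in WT and 605 and 625 CPM in the knockout, so the genotypes overlapped (log2 fold change 0.09, SE 0.10, adjusted p = 0.698). Srsf4 was low, at 55.3 and 45.3 CPM in WT and 49.6 and 58.9 CPM in the knockout, with overlap and a log2 fold change of 0.10 (SE 0.20, 95% interval -0.36 to 0.56, adjusted p = 0.832). The 3 genes lie at chr12:80945504-80950507, chr2:162931528-162937121 and chr4:131873617-131901706, all on the plus strand. Of the exonic bases of Srsf4, 43% overlap the noncoding gene Gm12992 on the opposite strand, which had 25 to 65 counts beside the 1138 to 1556 of Srsf4.

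Srsf9, a small SR protein close in sequence to SRSF1, had the lowest counts of the 10, 711 to 1152 per library. It stood at 41.0 and 29.7 CPM in WT and 27.6 and 31.3 CPM in the knockout. WT replicate 1 alone was high, and WT replicate 2 lay among the knockout libraries. The log2 fold change of -0.27 was as large as that of Srsf3, but with an SE of 0.24 and a 95% interval of -0.84 to 0.30 (adjusted p = 0.6). Srsf11, an RS-domain protein that binds U2AF and promotes neuronal microexons, had 240.2 and 217 CPM in WT and 248 and 268 CPM in the knockout. Both knockout libraries were higher, with a log2 fold change of 0.17 (SE 0.12, 95% interval -0.10 to 0.44, adjusted p = 0.461). Srsf9 lies at chr5:115327177-115333080 on the plus strand, Srsf10 at chr4:135855747-135869908 on the plus strand and Srsf11 at chr3:158010473-158036639 on the minus strand.

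Spread between libraries of 1 genotype varied among the SR genes. Counts of 711 to 34411 per SR gene and library give a counting SD of 0.539% to 3.75%. The 2 WT libraries differed by a ratio of 1.38 for Srsf9 and 1.30 for Srsf5, but by only 1.007 for Srsf3 and 1.011 for Srsf2, within what counting error gives. In WT, replicate 1 was the higher library for 8 of the 10 genes, all but Srsf7 and Srsf10. In the knockout, the ratio between libraries ran from 1.03 (Srsf7) to 1.19 (Srsf4).

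With only 2 libraries a genotype, 1 library could set the sign of a difference. When WT replicate 1 was left out, Srsf1, Srsf5 and Srsf10 changed sign, to log2 fold changes of 0.03, 0.11 and -0.06. Without WT replicate 2, Srsf4 (-0.03) and Srsf6 (-0.01) changed sign, and Srsf4 also did so without knockout replicate 2. Srsf2, Srsf3, Srsf7, Srsf9 and Srsf11 kept their sign with each library left out. Srsf3 moved least for its size, between -0.30 and -0.22, while Srsf9 moved from -0.48 without WT replicate 2 to -0.02 without WT replicate 1. No SR gene was called in any of these fits, which take the single remaining library to be as variable as the pair of the other genotype.

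**Figure D3:**
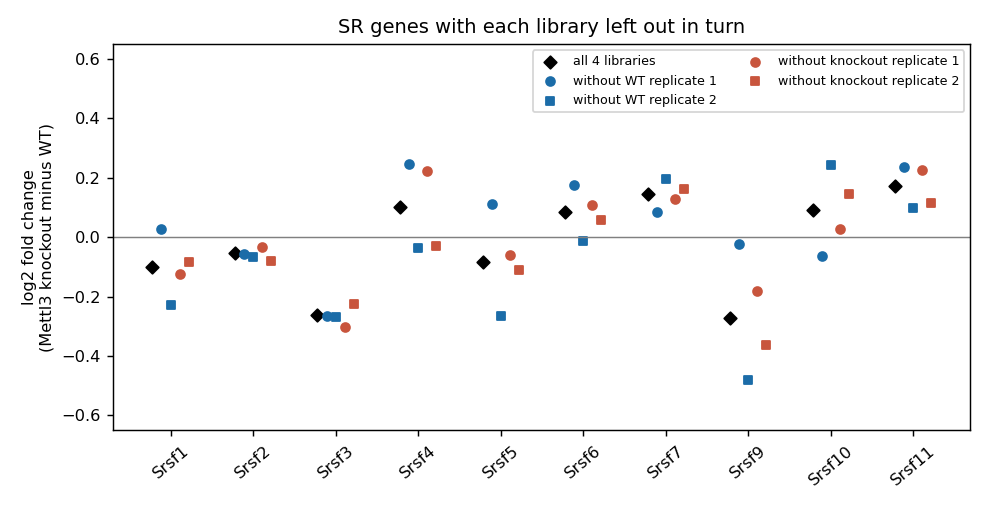
Log2 fold change of each SR gene, knockout minus WT, from all 4 libraries (black diamonds) and with each library left out in turn (blue for a WT and red for a knockout library left out). Srsf3 stays below 0 and Srsf7 and Srsf11 above it, and Srsf1, Srsf4, Srsf5, Srsf6 and Srsf10 have marks on both sides.

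Between genes, levels can be compared only per length. In CPM per kilobase of merged exons, Srsf5 ranked first (WT mean 271 ± 50.5, knockout mean 256 ± 6.1, SD, n = 2 each) and Srsf7 came next (175 ± 9.13 and 194 ± 3.54) in all 4 libraries. Srsf2 (131 ± 1.03 and 126 ± 2.54) and Srsf6 (121 ± 11.4 and 128 ± 3.04) followed and exchanged places between genotypes. Srsf10 (50.8 and 54.1) and Srsf1 (50.1 and 46.7) exchanged places between the WT libraries. Srsf3 (28.9 and 24.2) and Srsf11 (27.1 and 30.5) exchanged places between genotypes. Srsf9 (21.4 and 17.8) and Srsf4 (14.1 and 15.2) came last in all 4 libraries. Even Srsf4 lay above 73.8% of tested genes per kilobase, and Srsf5 above 99.1%. The order in the middle depends on the length used: over the longest coding transcript, the level of Srsf3 was 87.3 in WT and 72.9 in the knockout, with 2618 bases in place of 7899 of merged exons, and Srsf1 moved from rank 6 to rank 8.

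Together the 10 genes took 92463 to 113195 counts per library, or 4026 and 3681 CPM in WT and 3860 and 3890 CPM in the knockout. The WT libraries were the highest and the lowest, so the summed level did not separate the genotypes. Within the sum, Srsf5 held 30.4% and 25.5% in WT and 26.03% and 26.7% in the knockout. The share of Srsf3 was 5.70% and 6.18% in WT and 5.08% and 4.77% in the knockout, and that of Srsf11 was 5.97% and 5.90% in WT and 6.44% and 6.88% in the knockout. The shares of 5 of the 10 genes did not overlap between genotypes, with Srsf1, Srsf3 and Srsf9 lower and Srsf6 and Srsf11 higher in the knockout. In CPM, 50.3% of all tested genes did not overlap, so this count is no result about the family. Shares of a sum also depend on each other, and Srsf9 separated only by 0.8057% in WT replicate 2 against 0.8035% in knockout replicate 2. The shares of Srsf2 and Srsf7, whose CPM did not overlap, did overlap.

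What a gene count sums matters for this family. GENCODE M21 lists a transcript fated to nonsense-mediated decay for 9 of the 10 members, all but Srsf10, where 29.4% of 11697 tested coding genes have one, and a retained-intron transcript for 8 of 10, all but Srsf9 and Srsf10, against 59.7%. Coding and poison-exon forms enter the same count, so a shift from one to the other at a constant total would not be seen here. Processed pseudogenes resembling the coding transcripts were found for Srsf3 (5 copies, 84.6% to 99.6% identity), Srsf5 (1), Srsf7 (1) and Srsf10 (5). The copies with a row in the table held at most 1.22% of the counts of their member. Among them, Gm12966, 99% identical to Srsf5 over 810 bases, had 221 and 133 counts in WT and 72 and 86 in the knockout, and Gm9761, 99.6% identical to Srsf3 over 492 bases, had 50 and 70 in WT and 28 and 18 in the knockout. Reads that fit both a member and its copy cannot be placed.

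The kinases and the importin that act on SR proteins did not pass the test either, with 0 of 9 tested genes higher, 0 lower, and 0.10 as the median log2 fold change. Srpk1, a main cytoplasmic SR kinase, had 443 and 459 CPM in WT and 504 and 575 CPM in the knockout (log2 fold change 0.26, SE 0.10, adjusted p = 0.213). Prpf4b, a kinase of the tri-snRNP, had a log2 fold change of 0.38 (adjusted p = 0.265). Srpk3, best known from muscle, had 0 counts in both WT libraries and 32 and 40 in the knockout, at least 12.6-fold higher against a floor of 3 counts per library. Srpk3 passed the filter on low counts through the knockout libraries alone, so its test values are not given, although it is counted among the 9 tested genes. The list median with Srpk3 at that bound was again 0.10. Of 18 other SR and SR-like genes, 0 passed in either direction, 15 had a positive value and the median was 0.16. Scaf1, an RS-domain protein that binds RNA polymerase II, had 27.0 and 33.9 CPM in WT and 74.5 and 52.5 CPM in the knockout (log2 fold change 1.07, SE 0.24, adjusted p = 0.0692). Son, a scaffold of nuclear speckles, had a log2 fold change of 0.42 (adjusted p = 0.0961), and Tra2b, an SR-like splicing activator, 0.17 (adjusted p = 0.356). DESeq2 called Scaf1 and Son, and its result for Srpk3 is left out for the reason given above.

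Among the genes that work with the SR proteins, those that passed were Ythdc1 and Hnrnpa2b1. Over all tested genes, 2.59% passed, and the lists of such genes were chosen with earlier results of these data known. Calls of 2 genes over all these lists are therefore no result about m6A readers in particular. Ythdc1 rose in the knockout, from 113 and 143 CPM in WT to 291 and 219.5 CPM, 1.999 times the WT level (log2 fold change 0.9994, SE 0.18, 95% interval 0.57 to 1.42, adjusted p = 0.0401 by edgeR). Hnrnpa2b1, an hnRNP protein whose RNA binding has been linked to m6A, rose from 2084 and 2168 CPM to 2716 and 2763 CPM, 1.29 times the WT level (log2 fold change 0.37, SE 0.07, 95% interval 0.21 to 0.52, adjusted p = 0.039). With each library left out in turn, neither passed: the adjusted p ran from 0.0863 to 0.208 for Ythdc1 and from 0.0554 to 0.248 for Hnrnpa2b1. Those fits called only 41 to 172 genes in all. Both calls were also lost with a replicate block (adjusted p = 0.158 and 0.141). The differences stayed positive in all 11 alternatives, with log2 fold changes of 0.78 to 1.182 for Ythdc1 and 0.33 to 0.42 for Hnrnpa2b1. The same libraries differed in NKT1, stage 0 and B cell markers, as given above, and the part of those cells in these 2 rises was not tested. The SR protein that YTHDC1 recruits, Srsf3, had a log2 fold change of -0.26 and the one it holds off, Srsf10, of 0.09. Neither passed (adjusted p = 0.249 and 0.756 by edgeR), and a link of either to Ythdc1 was not tested. The list of Ythdc1, export and poly(A) site genes, and the hnRNP genes Hnrnpa2b1, Hnrnpc and Rbmx held 10 genes. It had 2 higher (Ythdc1 itself and Hnrnpa2b1), 0 lower and a median of 0.03. No export or poly(A) site gene of that list passed edgeR's test. The export receptor Nxf1 stood at 239 to 263 CPM over all 4 libraries, with a log2 fold change of 0.01 (adjusted p = 0.969), and its cofactor Nxt1 had 0.82 (adjusted p = 0.0743). Rbmx, an hnRNP protein whose RNA binding is also linked to m6A, had -0.79 (adjusted p = 0.105). Nxt1 and Rbmx did not pass edgeR's test.

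The machinery that SR proteins compete with or recruit gave few calls. Of 26 hnRNP genes, many of which antagonise SR proteins at exons, 1 was higher (Hnrnpa2b1) and 0 lower, and the median was 0.01 on the log2 scale. Hnrnpr (0.51, adjusted p = 0.0556) and Ptbp3 (-0.71, adjusted p = 0.0752) came next in p and did not pass. Of 32 tested spliceosome core genes, 0 passed in either direction and the median was -0.08. U2af2, the large U2AF subunit that SR proteins help to recruit, had 76.4 and 77.9 CPM in WT and 106 and 103 CPM in the knockout (log2 fold change 0.44, adjusted p = 0.148). Prpf6 and Eftud2, of the tri-snRNP, had log2 fold changes of -0.60 and 0.42 (adjusted p = 0.0908 and 0.144). Of 15 nonsense-mediated decay genes, which clear poison-exon transcripts of the SR genes, 0 passed in either direction and the median was 0.20. Smg1, the kinase that phosphorylates UPF1, had a log2 fold change of 0.41 (adjusted p = 0.178), and Smg8 and Upf3b had 0.52 and 0.50 (adjusted p = 0.201 and 0.273). DESeq2 called Hnrnpr, Ptbp3, Nxt1 and Prpf6 as well.

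**Figure D4:**
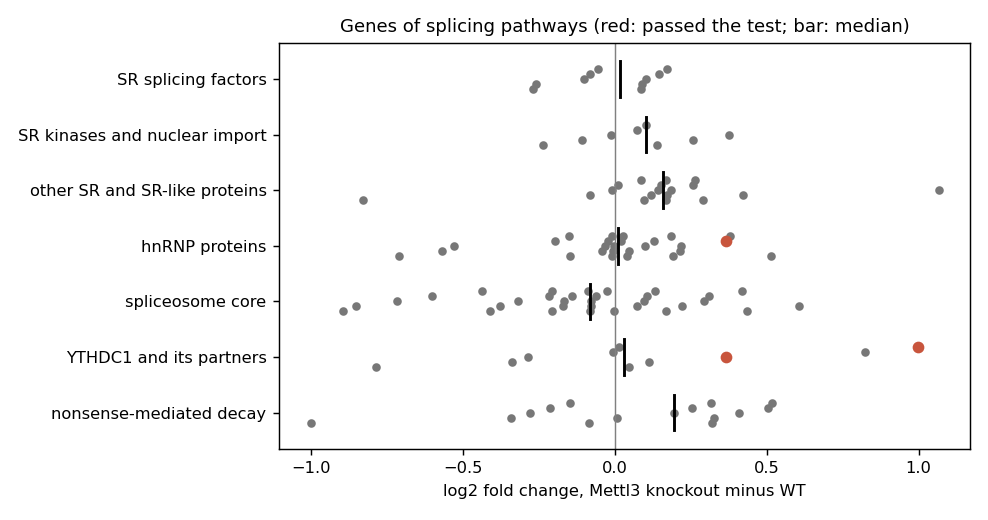
Log2 fold change, knockout minus WT, of each tested gene of the SR family and of 6 lists of genes around it, with a black bar at each list's median and red points for genes with an edgeR adjusted p under 0.05. Hnrnpa2b1 is in 2 lists and is drawn in each, Srpk3 (0 counts in WT) is beyond the axis and not drawn, and the 10 SR genes lie between -0.27 and 0.17.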

How the data were processed

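The data are 4 RNA-seq libraries of iNKT cells sorted from thymus, and the labels gave each library's group and replicate number. The authors deposited whole-number read counts for 53715 versioned Ensembl gene IDs, 1 column per library. Libraries were made by Smart-seq2, per the labels' protocols. Per the submitters' processing notes build mm10 was used with STAR 2.6.0a, HTSeq 0.6.1, DESeq2 1.18.1 and FastQC 0.11.5; the role of each, the annotation release, the strand setting and filters were not given in the sources used here. IDs were matched to GENCODE M21 (GRCm38), 53620 without the version and 51464 with it. The versions of Srsf3 and Srsf7 differed, so no gene coordinates are given for them.

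In R 4.3.3, genes were kept by filterByExpr (minimum count 10) and scaled by TMM. The genotype test was the two-sided quasi-likelihood F test of edgeR 4.0.16 (glmQLFTest after glmQLFit with legacy=FALSE and robust=TRUE), with genotype as the sole term and 2 residual degrees of freedom, with Benjamini-Hochberg adjustment over 14185 genes. SE is the size of the log2 fold change over the square root of F. Alternatives used DESeq2 1.42.0, limma 3.58.1 (voom), other filters and scalings, a replicate block and each library left out. Fits were tested on simulated data with differences far larger than those of the SR genes, which does not show whether differences as small as theirs would be found. Libraries of a genotype differed beyond counting noise (chi-square per degree of freedom 42.5 for WT, 27.0 for the knockout), so none was a repeat deposit of another, and each was used as 1 replicate; this does not show that they came from separate animals. Reads carry no molecular identifiers and are not independent molecules, so counting SDs and floors describe counting error alone.

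The SR genes and the lists around them (SR kinases and import, other SR-like proteins, hnRNP proteins, spliceosome core, YTHDC1 and partners, nonsense-mediated decay, and markers of proliferation, stress and cell types) were chosen with earlier results of these data known. The text names all 10 SR genes, Mettl3, the called genes of each pathway list or otherwise up to 3 with the smallest p, and genes that overlap or copy an SR gene; Nxf1, Nxt1, Rbmx, Hnrnpr and Ptbp3 were named outside this rule, and the ratios between SR genes were chosen after their values were seen. In the marker lists not described elsewhere, proliferation genes gave 1 call of 15 (Mki67, higher), immediate early and stress genes 1 higher and 3 lower of 12, CD4+CD8+ thymocyte genes 0 of 9, myeloid genes 2 higher and 1 lower of 9, erythroid genes 0 of 3, and iNKT and T cell genes 2 lower of 8 (Trac and Tbx21).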

Additional observations from a re-analysis of the deposited data

How the results depend on the processing

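The 10 SR genes gave 0 calls in all 11 alternatives, and the median of their log2 fold changes stayed between -0.05 and 0.07. The number of genes called among all tested moved far more: 368 in the fit as reported, 1333 with DESeq2, 727 with a filter of 5 CPM in 2 libraries, and 41 to 172 with 1 library left out. With the replicate number of the labels as a block, 33 genes and 0 SR genes were called. The labels state no pairing of same-numbered libraries. Over genes, these libraries did not deviate together (correlation -0.0125), but this cannot show whether they were paired. Ythdc1 and Hnrnpa2b1 were called in 4 of the 11 alternatives (DESeq2, total-count scaling, voom and the 5 CPM filter). Beside the block and the fits without a library, they were lost without a filter on low counts (adjusted p = 0.0558 and 0.0513) and with the gene-length trend removed (0.0513 for both). The cause was not tested. Over the shorter length of the longest coding transcript, the per-kilobase levels of 9 of the 10 SR genes, all but Srsf1, were higher by more than the spread between libraries. The counts of the SR genes give a counting SD of at most 3.75%. The printed intervals, from 2 libraries a genotype, rest on a spread that may be technical. They bound differences between these libraries and may not bound those between animals.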
